A study of Mus musculus with 12 samples.

Results

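Axon guidance ligands and receptors were followed in cultured mouse cortical neurons in which topoisomerase 1 (TOP1) was inhibited with topotecan, deleted, or both. All rows of the count table whose gene symbol begins with Sema, Plxna, Plxnb, Plxnc, Plxnd, Efna, Efnb, Robo, Unc5, or with Slit, Ntn, Epha or Ephb and a digit, plus Dcc, Nrp1 and Nrp2, were taken, which gave 72 of 23893 genes. Of these, 3 share only the letters of a family name: Unc50, Unc5cl and Plxna4os1, a transcript that lies antisense within Plxna4. The remaining 69 genes comprised 13 membrane semaphorins, 7 secreted semaphorins, 9 plexins, 2 neuropilins, 8 ephrins, 9 EphA and 5 EphB receptors, 4 netrins, 5 netrin receptors, 3 Slits and 4 Robos. A count was present for 68 of them, all but Robo4, and 64 had a mean of at least 1 CPM (counts scaled to a common library size) over the 12 libraries. The others, named here after their values were seen, were Epha1, Ntn5, Plxnb3, Sema3g and Robo4.

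PolyA RNA was sequenced from 12 cultures, 3 in each of 4 groups. Nothing in the labels says whether cultures of a group came from separate litters or days. The p-values therefore refer to the spread between these cultures, which the test estimates partly from all genes together. Cortical cells of C57BL6/J embryos (E13.5-15.5) were given lentivirus at DIV 3 (days in vitro) and received vehicle (0.003% DMSO) or 300 nM topotecan from DIV 15 for 72 h. Every group carried the floxed Top1 allele according to the methods, whereas the labels call the control genotype wild-type. WT-Veh and WT-Topot cells expressed tdTomato alone from the CaMKIIα promoter, given vehicle and topotecan respectively, and Top1 cKO-Veh and Top1 cKO-Topot cells expressed tdTomato with the recombinase CRE from the same promoter, given vehicle and topotecan respectively. Since the promoter acts in neurons and 85 to 90% of cells were transduced, non-neuronal and uninfected cells kept Top1 in the deleted cultures.

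Growing axons find their way by reading cues in the tissue, and 4 ligand and receptor systems carry much of this information. Slits bind Robo receptors and netrins bind DCC and UNC5 receptors. Ephrins, which sit on cell membranes, bind Eph receptor tyrosine kinases, and semaphorins bind plexins, in the case of the secreted class 3 semaphorins together with neuropilins. In the cortex the same molecules act later in dendrite growth and in the formation and pruning of synapses. Topotecan traps TOP1 on DNA at the moment of strand cleavage, whereas deletion takes the enzyme away.

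The libraries held 1730164 to 4583777 counts, of which the 72 genes took 0.3109 to 0.4623%. Top1 itself was at 117 to 163.5 CPM in the 6 tdTomato libraries and at 27.06 to 43.97 CPM in the 6 CRE libraries. The summed level of 10 neuronal markers was 7744 to 10330 CPM over all libraries, although in WT-Topot vs WT-Veh cells 1 of the 10 was lower and 1 higher by the test used below (3 and 3 with the replicate block). The summed level of 8 astrocyte markers was 2370 to 4826 CPM in WT-Veh, 1087 to 1836 in WT-Topot, 2685 to 6145 in Top1 cKO-Veh and 1686 to 3110 in Top1 cKO-Topot cells, and 3 of the 8 were lower in WT-Topot than in WT-Veh cells (5 with the block). Summed levels of 9 interneuron markers were 804.9 to 1774 CPM in WT-Veh and 577.7 to 1058 CPM in WT-Topot cells, with no marker called without the block and 4 lower and 2 higher with it. Those of 9 progenitor and dividing cell markers were 93.3 to 152.4 CPM in WT-Veh, 178.6 to 223.2 in WT-Topot, 108.7 to 192 in Top1 cKO-Veh and 139.9 to 294.2 CPM in Top1 cKO-Topot cells. Of the 9, 1 was called higher in WT-Topot than in WT-Veh cells, Nes. Its means were 45.2, 105.7, 63.2 and 152.9 CPM in the same order of groups, and those of Sox2 66.8, 70.4, 66.3 and 67.7 CPM. Means of Mki67, Top2a, Ccnb1 and Cdk1 were 1.47 CPM or less in every group. The part of these cell types in the results that follow was not tested. In bulk RNA, fewer cells of a type and less RNA per cell cannot be told apart.

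Changes were tested with edgeR's quasi-likelihood test on the 6 libraries of each comparison, and a gene was called at a false discovery rate (FDR) under 0.01, which is the Benjamini-Hochberg adjusted p over all 23893 genes. Levels are CPM after TMM scaling, in the order of replicates 1, 2 and 3, and fold changes are log2 values ± standard error (SE). Libraries with the same replicate number deviated together, so each comparison was also fitted with replicate as a block. With so few cultures, very small FDRs, above all those with the block, rest largely on spread estimated over all genes. They should not be read as the spread of that gene between cultures. The number of genes called in that fit is given for each comparison, and single genes for part of the calls it changed.

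To compare genes with each other, CPM was divided by the annotated exon length, giving RPKM. In WT-Veh cells the most abundant ligand was Efnb3, a transmembrane ephrin, with a mean of 62.7 RPKM, followed by Sema7a, a lipid-anchored semaphorin, at 43.3, Efnb2 at 35.1 and Sema6b at 33.6 RPKM. Among receptors Epha5 (36.3 RPKM) and Epha4 (35.9 RPKM) were nearly level, and the plexins Plxna1, Plxnd1, Plxna4 and Plxna2 had means of 29.3, 25.5, 25.0 and 22.0 RPKM. Within the plexins the order cannot be read from these values, since the libraries of Plxna4 alone ranged from 194 to 517 CPM. Netrin receptors were led by Unc5a (15.5 RPKM), Unc5d (11.8) and Dcc (9.38), and the Robos by Robo2 (11.3) and Robo1 (6.23). Of the ligands of these receptors, Slit1, Slit3 and Slit2 had means of 7.57, 3.24 and 2.76 RPKM, and Ntn4, Ntn1 and Ntn3 of 3.11, 1.95 and 1.90 RPKM.

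Many guidance genes are long. The median genomic span of the 69 genes was 46.3 kb, against 15.98 kb for the 22117 genes of the table with an annotated span, and 31 of the 69 (44.9%) exceeded 100 kb, against 10.9% of all genes. Spans are from GENCODE vM1 on NCBIM37, the assembly that mm9 names. Dcc is the longest at 1092 kb (chr18:71418392-72510723, minus strand), followed by Epha6 at 952 kb (chr16:59653309-60605357, minus strand) and Slit3 at 587.3 kb (chr11:34934726-35522009, plus strand).

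Topotecan in WT cells lowered guidance genes from all 4 systems. Against WT-Veh, WT-Topot cells had 16 of the 69 genes lower and 2 higher, and of all genes tested 2.04% were called lower and 0.682% higher. The genes that fell were Dcc, Unc5c and Unc5d of the netrin receptors, Slit2 and Slit3, Robo1 and Robo2, Epha5, Epha6 and Ephb1 of the Eph receptors, the ligand Efna5, the semaphorins Sema3e, Sema5a and Sema7a, and the plexins Plxna2 and Plxna4. The genes that rose were Sema6c and Efnb3. No netrin and no neuropilin was called. With the replicate block 24 were lower and 6 higher, against 5.0% and 3.24% of all genes. Of the 24, 21 were over 100 kb, which is 67.7% of the 31 guidance genes of that length. Among all genes over 100 kb at 1 CPM or more, 33.9% were called lower with the block. The median log2 fold change over the 68 genes with a count was −0.19, and over all 18711 genes with a count it was 0.00.

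**Figure D1:**
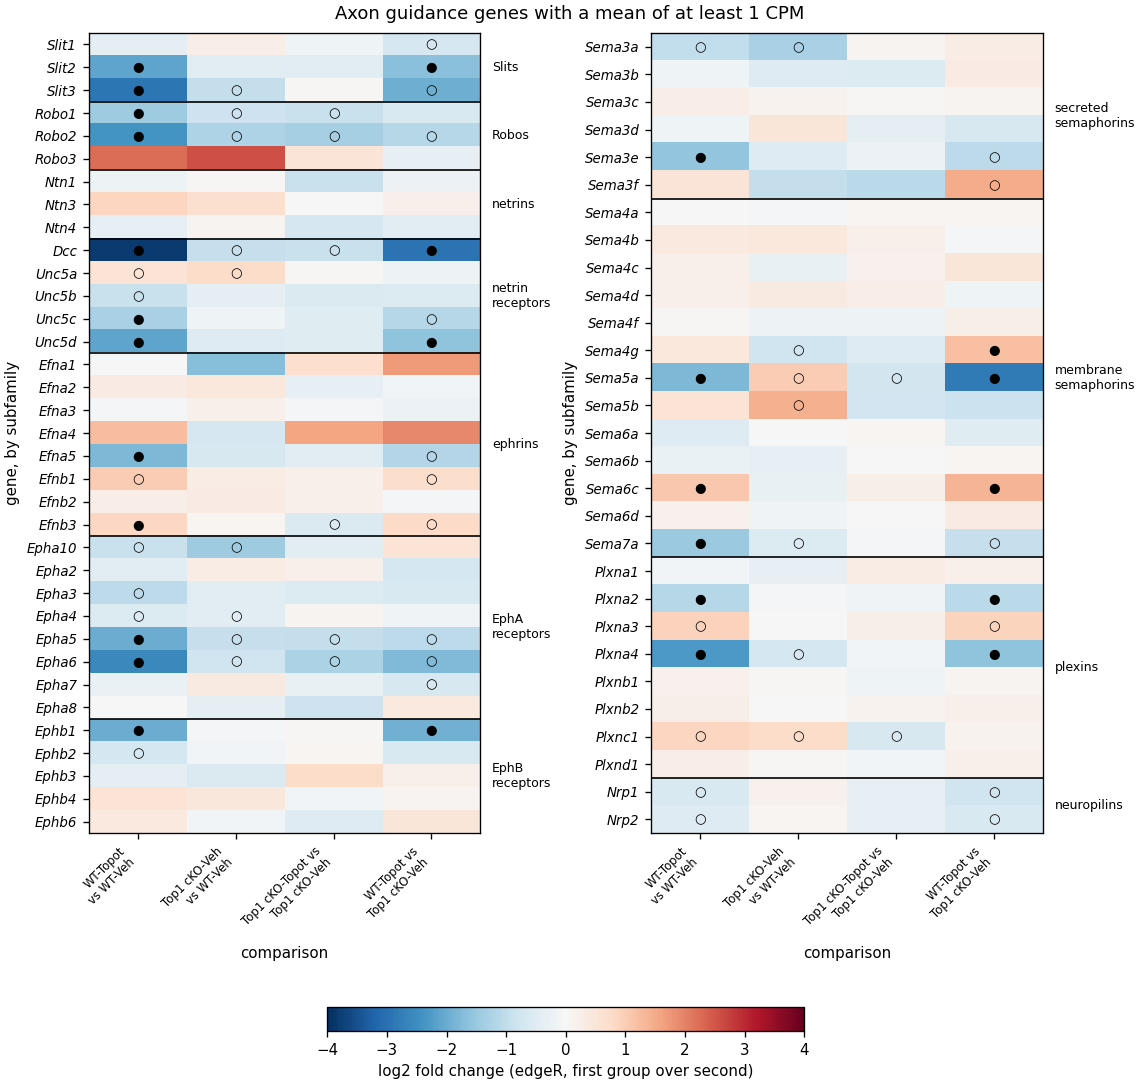
Log2 fold changes of the 64 guidance genes averaging 1 CPM or more, with a row per gene grouped by subfamily and a column per comparison, as first group over second (colour scale from −4 to 4). Filled circles mark genes called at FDR under 0.01 and open circles those called only with the replicate block. Slits, Robos and netrin receptors are mostly blue in the WT-Topot vs WT-Veh column, with 16 lower and 2 higher genes called there in all.

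The genes that fell were the long ones. Of the 31 guidance genes over 100 kb, 15 were called lower, whereas 1 of the 38 shorter genes, Sema7a (22.75 kb), was called lower. Of all genes tested, 15.1% of genes over 100 kb and 0.604% of those of 100 kb or less were called lower. As all 31 long guidance genes had a mean of at least 1 CPM, long genes at that level are the closer background, and 18.0% of those were called lower. The median log2 fold change was −1.05 over the 31 long guidance genes and −0.39 over the 2327 long genes with a count, and 0.20 over the 37 shorter guidance genes with a count and 0.05 over the 15325 shorter genes. Across the 68 guidance genes with a count, log2 fold change and log10 span had a Pearson r of −0.725 and a Spearman rho of −0.68. This is a description over genes measured in the same libraries, which are not independent replicates.

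**Figure D2:**
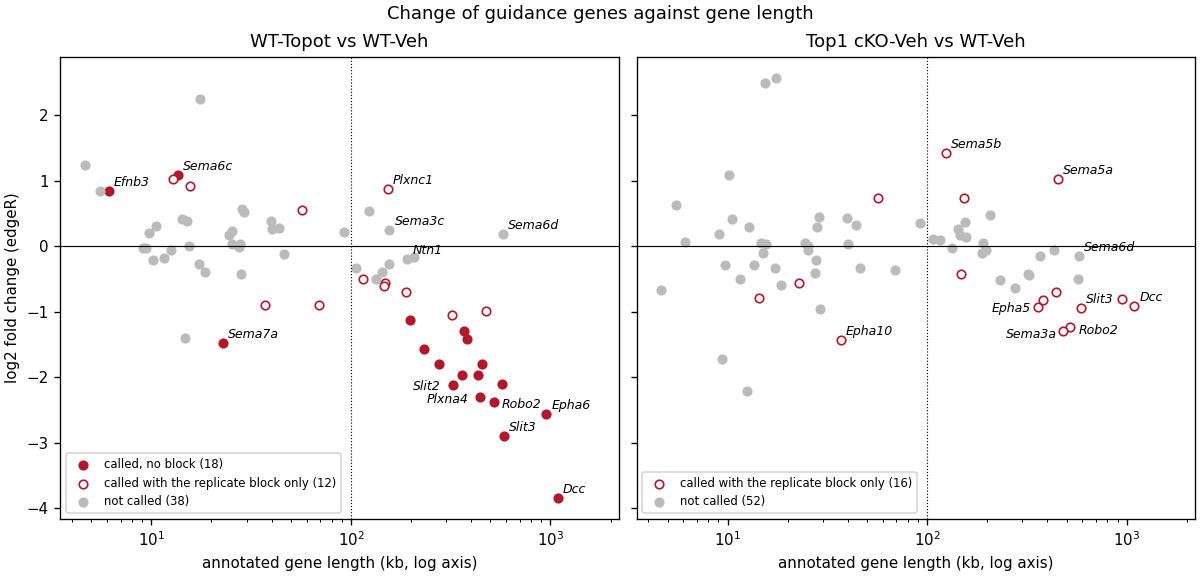
Log2 fold change of the 68 guidance genes with a count (vertical axis) against the annotated gene length in kb (log axis), for topotecan in WT cells (left) and for Top1 deletion without drug (right). The dotted line is at 100 kb. Filled points were called at FDR under 0.01 and open points only with the replicate block. On the left, 15 of the 16 genes called lower lie to the right of the line and Dcc is lowest at −3.84; on the right no point is filled.

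Some long genes did not fall. Sema6d, a transmembrane semaphorin that spans 577.8 kb and was picked out after its values were seen, stood at 83.7, 96.9 and 93.3 CPM in WT-Veh and 95.2, 94.5 and 119 CPM in WT-Topot cells. The groups overlapped, and the log2 fold change was 0.18 ± 0.19 (FDR = 0.888). Its annotation holds 8 coding transcripts from 5 start sites, with a median length of 57.34 kb and the shortest at 11.68 kb, and the span is that of all of them together. Sema3c (156.0 kb), a secreted semaphorin, did not fall either, with 23.1, 28.5 and 54.1 CPM in WT-Veh and 26.8, 40.6 and 56.1 CPM in WT-Topot cells (log2 fold change 0.25 ± 0.31, FDR = 0.945).

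To show the promoters of genes that fell and of a gene that rose, the 250 bases before the RefSeq start are given for Slit2 and its receptor Robo1, for Epha6 and Ephb1, all lower in WT-Topot cells, and for Sema6c, which was higher. Each matched the NCBIM37 genome exactly once, at chr5:48374144-48374393 (plus strand), chr16:72663144-72663393 (plus), chr16:60605358-60605607 (minus), chr9:102257024-102257273 (minus) and chr3:94964092-94964341 (plus). Sequences run 5′ to 3′ and capitals mark the GC box letters GGGCGG, or CCGCCC on the other strand.
Slit2: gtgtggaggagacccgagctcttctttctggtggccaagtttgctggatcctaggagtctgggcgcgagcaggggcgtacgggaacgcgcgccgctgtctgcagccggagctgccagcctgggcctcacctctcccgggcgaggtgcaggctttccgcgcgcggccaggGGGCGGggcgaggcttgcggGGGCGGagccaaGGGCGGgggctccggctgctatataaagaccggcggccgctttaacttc
Robo1: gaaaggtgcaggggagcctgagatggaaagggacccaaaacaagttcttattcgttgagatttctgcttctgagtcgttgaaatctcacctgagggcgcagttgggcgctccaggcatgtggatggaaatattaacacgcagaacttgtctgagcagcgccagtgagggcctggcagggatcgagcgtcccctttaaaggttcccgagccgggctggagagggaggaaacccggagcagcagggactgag
Epha6: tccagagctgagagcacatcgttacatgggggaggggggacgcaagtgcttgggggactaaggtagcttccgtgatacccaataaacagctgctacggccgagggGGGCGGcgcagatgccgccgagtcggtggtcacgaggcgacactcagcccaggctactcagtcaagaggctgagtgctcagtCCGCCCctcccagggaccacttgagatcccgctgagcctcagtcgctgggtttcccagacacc
Ephb1: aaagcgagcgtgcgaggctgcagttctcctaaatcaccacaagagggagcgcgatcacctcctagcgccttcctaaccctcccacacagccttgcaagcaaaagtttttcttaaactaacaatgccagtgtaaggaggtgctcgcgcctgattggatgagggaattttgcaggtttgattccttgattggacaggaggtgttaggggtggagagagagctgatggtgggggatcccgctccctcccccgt
Sema6c: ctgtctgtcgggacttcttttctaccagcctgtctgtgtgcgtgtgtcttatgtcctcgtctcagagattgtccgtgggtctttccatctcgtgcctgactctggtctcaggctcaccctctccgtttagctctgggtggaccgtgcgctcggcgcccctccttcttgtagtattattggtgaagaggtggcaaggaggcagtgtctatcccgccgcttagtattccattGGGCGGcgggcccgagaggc

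The RefSeq table (build GRCm38.p6) held 75 promoters of 59 guidance genes. The GC box was found on either strand in 53 of the 75 and in 32.74% of all 32851 promoters of the same length. The CCAAT box (letters CCAAT or ATTGG) was found in 20 of the 75 and in 33.85% of all promoters, and the TATA box (letters TATAAA or TTTATA) in 2 of the 75, which included Slit2, and in 12.37% of all promoters. Matches of different motifs could overlap. Of the genes shown, Slit2 held 3 GC boxes, Epha6 held 2, Sema6c held 1 and Robo1 and Ephb1 held none, so genes that fell were found with and without these letters. The printed promoters had a GC content of 54 to 69.6%, against a median of 52.4% over all promoters.

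Among the Slits, secreted ligands that mostly repel axons, Slit2 and Slit3 fell with topotecan in WT cells and Slit1 was not called. Slit3 was at 19.9, 20.6 and 18.4 CPM in WT-Veh, 2.35, 3.15 and 2.14 CPM in WT-Topot, 10.6, 15.1 and 3.51 CPM in Top1 cKO-Veh and 13.1, 9.63 and 8.31 CPM in Top1 cKO-Topot cells. Every WT-Topot library was below all other libraries, and the Top1 cKO libraries lay below the WT-Veh ones. The WT-Topot libraries held 5 to 11 raw counts of Slit3, so the size of its changes there rests on few reads. The log2 fold change of Slit3 was −2.90 ± 0.37 for WT-Topot vs WT-Veh (FDR = 3.15e-05), a 7.47-fold reduction. For Top1 cKO-Veh vs WT-Veh it was −0.95 ± 0.39 (FDR = 0.44, with the block 0.00332), and Top1 cKO-Veh replicate 3 was well below the other two. Slit2 was at 35.1, 55.7 and 34.0 CPM in WT-Veh, 5.70, 12.6 and 10.3 CPM in WT-Topot, 34.8, 32.5 and 23.5 CPM in Top1 cKO-Veh and 24.3, 24.9 and 17.5 CPM in Top1 cKO-Topot cells. WT-Topot again stood below the rest without overlap, whereas the vehicle groups overlapped. In log2 terms the change was −2.11 ± 0.32 against WT-Veh (FDR = 0.000207) and −1.67 ± 0.31 against Top1 cKO-Veh (FDR = 0.00393). The call against Top1 cKO-Veh was lost when Top1 cKO-Veh replicate 2 (FDR = 0.0184), WT-Topot replicate 1 (0.0167) or WT-Topot replicate 3 (0.0122) was left out, and with filterByExpr, a filter on low counts (0.012). Slit1, which spans 143.4 kb, had 44.8, 59.2 and 30.5 CPM in WT-Veh and 23.8, 56.7 and 20.6 CPM in WT-Topot cells, overlapping groups with a log2 fold change of −0.40 ± 0.32 (FDR = 0.785).

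The Slit receptors Robo1 and Robo2 were lower after topotecan and lay at intermediate levels after deletion. Robo2 was at 182, 200 and 180 CPM in WT-Veh, 26.1, 40.4 and 41.5 CPM in WT-Topot, 98.9, 85.6 and 53.1 CPM in Top1 cKO-Veh and 24.7, 35.9 and 33.2 CPM in Top1 cKO-Topot cells. The groups fell into 3 levels that did not overlap, with both topotecan groups lowest. The log2 fold change was −2.38 ± 0.21 in WT-Topot (FDR = 7.22e-07) and −1.23 ± 0.22 in Top1 cKO-Veh cells (FDR = 0.0156, with the block 1.25e-17), each against WT-Veh. Without the block the second became a call without Top1 cKO-Veh replicate 1 (FDR = 0.00105) or WT-Veh replicate 3 (FDR = 0.00517). Robo1 was at 72.9, 65.3 and 40.3 CPM in WT-Veh, 18.4, 26.6 and 21.4 CPM in WT-Topot, 39.5, 37.6 and 24.1 CPM in Top1 cKO-Veh and 17.1, 24.2 and 12.7 CPM in Top1 cKO-Topot cells. WT-Veh lay above every other group, and the remaining groups overlapped in part. On the log2 scale Robo1 differed from WT-Veh by −1.42 ± 0.25 in WT-Topot (FDR = 0.0012) and −0.82 ± 0.27 in Top1 cKO-Veh cells (FDR = 0.239, with the block 0.000166). Robo3, known from axons that cross the midline, was at 0 to 5.51 CPM and was not called in any comparison.

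The netrins showed no call in any comparison, whereas their receptor Dcc, through which netrin-1 attracts axons, had the largest decrease of all guidance genes called in WT-Topot cells. Dcc was at 56.8, 113 and 57.6 CPM in WT-Veh, 3.02, 10.02 and 1.71 CPM in WT-Topot, 41.5, 51.3 and 26.1 CPM in Top1 cKO-Veh and 17.5, 28.9 and 17.0 CPM in Top1 cKO-Topot cells. The WT-Veh libraries lay above and the WT-Topot libraries below all others, and the Top1 cKO groups overlapped each other. The WT-Topot libraries held 4 to 35 raw counts of Dcc, so the size of its changes there rests on few reads. The log2 fold change against WT-Veh was −3.84 ± 0.41 in WT-Topot (FDR = 5.13e-06), a 14.4-fold reduction, and −0.92 ± 0.30 in Top1 cKO-Veh cells (FDR = 0.238, with the block 4.37e-06). WT-Topot was also lower than Top1 cKO-Veh (log2 fold change −2.94 ± 0.43, FDR = 0.000572). Ntn1, netrin-1, spans 191.5 kb and was at 12.6, 9.20 and 15.0 CPM in WT-Veh and 10.1, 8.30 and 13.7 CPM in WT-Topot cells, which overlapped (log2 fold change −0.19 ± 0.34). Ntn4 (106.5 kb), which also binds laminin, had a log2 fold change of −0.34 ± 0.36, and the short Ntn3 (5.54 kb) of 0.84 ± 0.32 (FDR = 0.192).

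The UNC5 receptors, which mediate repulsion by netrins, moved in different directions. Unc5d (572.6 kb) was at 87.2, 107 and 123 CPM in WT-Veh, 15.1, 35.5 and 21.8 CPM in WT-Topot, 75.9, 68.5 and 78.2 CPM in Top1 cKO-Veh and 48.2, 50.1 and 59.9 CPM in Top1 cKO-Topot cells. All 4 groups were apart from each other, in the order WT-Veh, Top1 cKO-Veh, Top1 cKO-Topot, WT-Topot. For Unc5d the log2 fold change was −2.11 ± 0.26 in WT-Topot vs WT-Veh (FDR = 2.91e-05) and −1.61 ± 0.26 in WT-Topot vs Top1 cKO-Veh (FDR = 0.00134), and −0.51 ± 0.20 in Top1 cKO-Veh vs WT-Veh (FDR = 0.405). Unc5c (369.4 kb) was at 49.2, 61.4 and 49.0 CPM in WT-Veh and 15.4, 32.3 and 16.3 CPM in WT-Topot cells, with 45.4, 53.1 and 44.1 CPM in Top1 cKO-Veh cells. WT-Topot lay below both vehicle groups. The fall against WT-Veh was called at −1.30 ± 0.27 (FDR = 0.00584), a call lost without WT-Topot replicate 1 (FDR = 0.0143), WT-Topot replicate 3 (0.0245) or WT-Veh replicate 2 (0.0194) and with filterByExpr (0.0156). Unc5a (56.61 kb) was at 62.6, 86.8 and 44.9 CPM in WT-Veh and at 107, 126 and 89.7 CPM in Top1 cKO-Veh cells, without overlap, and at 104, 122 and 57.8 CPM in WT-Topot cells. It was higher only in the fits with the block, by 0.75 ± 0.15 after deletion (FDR = 2.4e-05) and by 0.55 ± 0.15 after topotecan (FDR = 0.00748). Unc5b (68.97 kb) had 22.5, 22.4 and 15.6 CPM in WT-Veh and 8.38, 13.2 and 10.7 CPM in WT-Topot cells, a difference called only with the block (FDR = 0.00665).

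**Figure D3:**
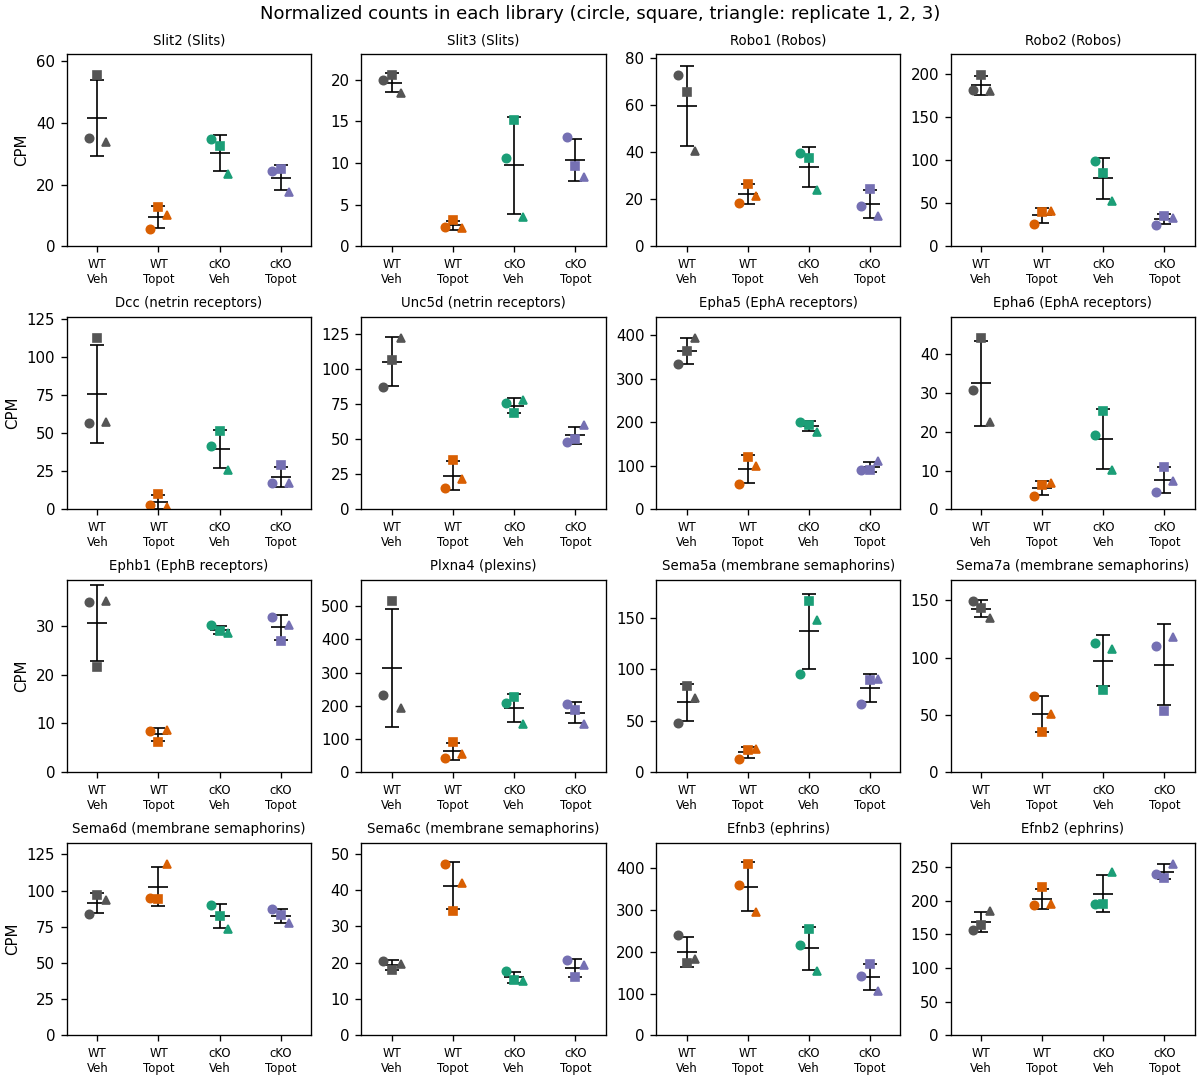
CPM of 16 guidance genes in each of the 12 libraries (points, shaped by replicate number) with the mean and SD of each group of 3 (bars), on axes that start at 0. Dcc, Slit3, Ephb1 and Plxna4 are lowest in WT-Topot cells, Robo2 and Epha5 are low in both topotecan groups and intermediate in Top1 cKO-Veh cells, and Sema6c and Efnb3 are highest in WT-Topot cells.

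Among Eph receptors, the tyrosine kinases that bind ephrins on neighbouring cells, 3 fell with topotecan in WT cells. Epha5 (359.6 kb) was at 334, 365 and 395 CPM in WT-Veh, 58.0, 121 and 99.4 CPM in WT-Topot, 201, 195 and 178 CPM in Top1 cKO-Veh and 91.2, 90.0 and 112 CPM in Top1 cKO-Topot cells. WT-Veh was highest, Top1 cKO-Veh stood between, and the topotecan groups overlapped each other below. In log2 terms the change was −1.97 ± 0.22 for WT-Topot (FDR = 1.01e-05) and −0.93 ± 0.17 for Top1 cKO-Veh (FDR = 0.0166, with the block 3.36e-13), each against WT-Veh. Epha6 was at 30.7, 44.3 and 22.5 CPM in WT-Veh, 3.35, 6.30 and 6.85 CPM in WT-Topot, 19.2, 25.4 and 10.02 CPM in Top1 cKO-Veh and 4.38, 11.0 and 7.43 CPM in Top1 cKO-Topot cells. WT-Topot lay below both vehicle groups, which overlapped each other. The log2 fold change was −2.56 ± 0.35 for WT-Topot vs WT-Veh (FDR = 7.27e-05) and −0.81 ± 0.33 for Top1 cKO-Veh vs WT-Veh (FDR = 0.455, with the block 0.00281). Epha10, a receptor with an inactive kinase domain that spans 36.9 kb, was at 53.5, 58.7 and 43.8 CPM in WT-Veh, 36.5, 22.9 and 24.4 CPM in WT-Topot and 25.4, 16.0 and 16.5 CPM in Top1 cKO-Veh cells. WT-Veh lay above both other groups, which overlapped. Without the block neither difference was called, and with it the log2 fold change was −1.45 ± 0.20 after deletion (FDR = 4.45e-11) and −0.90 ± 0.19 after topotecan (FDR = 0.00019). DESeq2 called Epha10 after deletion as well (FDR = 0.000283). Without the block, edgeR gave Epha10 after deletion an FDR of 0.0166, which became a call without Top1 cKO-Veh replicate 1 (0.0014) or WT-Veh replicate 3 (0.00484). After topotecan the FDR was 0.0354, which became a call without WT-Topot replicate 1 (0.00738) or WT-Veh replicate 3 (0.00603).

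Ephb1, a receptor of the transmembrane ephrins, fell with topotecan in WT cells, while the other 3 groups overlapped. It was at 34.8, 21.5 and 35.1 CPM in WT-Veh, 8.38, 6.30 and 8.56 CPM in WT-Topot, 30.1, 28.9 and 28.6 CPM in Top1 cKO-Veh and 31.9, 26.9 and 30.2 CPM in Top1 cKO-Topot cells. All WT-Topot libraries stood below every other library. Its log2 fold change was −1.97 ± 0.31 for WT-Topot vs WT-Veh (FDR = 0.000316), −0.06 ± 0.26 for Top1 cKO-Veh vs WT-Veh and 0.03 ± 0.23 for Top1 cKO-Topot vs Top1 cKO-Veh. Epha4, the second most abundant Eph receptor by length, was at 239, 273 and 169 CPM in WT-Veh and 142, 207 and 113 CPM in WT-Topot cells, which overlapped. Its log2 fold change of −0.56 ± 0.22 was called only with the block (FDR = 0.232 without and 0.00034 with it). Ephb2 and Epha3 were likewise lower only with the block (FDR = 0.00707 and 0.00145), at means of 44.2 and 26.9 CPM for Ephb2 and 19.4 and 9.27 CPM for Epha3 in WT-Veh and WT-Topot cells. Ephb6, which lacks kinase activity, was not called in any comparison, with a log2 fold change of 0.39 ± 0.22 after topotecan.

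The ephrins, ligands of these receptors, went both ways. Efna5 (277.1 kb), a lipid-anchored ephrin, was at 19.0, 42.5 and 20.2 CPM in WT-Veh, 5.36, 10.02 and 7.71 CPM in WT-Topot and 16.4, 16.9 and 19.0 CPM in Top1 cKO-Veh cells. WT-Topot lay below both vehicle groups, and WT-Veh replicate 2 was far above the other two. Its log2 fold change against WT-Veh was −1.80 ± 0.36 (FDR = 0.00389), and the call was lost without that library (FDR = 0.0351) and with filterByExpr (0.0143). Efnb3 (6.114 kb), which acts as a barrier to axons at the midline, was at 241, 174 and 184 CPM in WT-Veh, 361, 411 and 295 CPM in WT-Topot, 217, 254 and 154 CPM in Top1 cKO-Veh and 141, 171 and 107 CPM in Top1 cKO-Topot cells. WT-Topot was above every other library. It rose by 0.84 ± 0.19 in WT-Topot vs WT-Veh (FDR = 0.00856), a call lost without WT-Topot replicate 1 (FDR = 0.0157), WT-Topot replicate 2 (0.042) or WT-Veh replicate 2 (0.0351) and with DESeq2's size factors in edgeR (0.0106) or filterByExpr (0.0177). In Top1 cKO cells topotecan was accompanied by lower Efnb3 when the replicate was a block (−0.56 ± 0.10, FDR = 1.38e-05, against 0.849 without it). Efnb1 (12.86 kb) was at 35.1, 41.2 and 19.0 CPM in WT-Veh and 79.8, 72.4 and 42.4 CPM in WT-Topot cells, without overlap. Its increase of 1.02 ± 0.28 had an FDR of 0.0361, of 2.6e-06 with the block and of 0.00553 without WT-Topot replicate 3. Efnb2 (43.81 kb), at 156 to 255 CPM over all libraries, was not called in any comparison.

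Of the secreted semaphorins, Sema3e, which binds plexin D1, was called lower after topotecan. It was at 39.2, 54.8 and 40.9 CPM in WT-Veh, 14.4, 12.9 and 18.4 CPM in WT-Topot, 35.2, 29.3 and 30.1 CPM in Top1 cKO-Veh and 29.5, 20.6 and 29.3 CPM in Top1 cKO-Topot cells. WT-Topot was below all other libraries. The log2 fold change against WT-Veh was −1.56 ± 0.26 (FDR = 0.000651). Sema3a (477 kb), which repels axons through neuropilin-1 and A plexins, was at 48.9, 75.4 and 73.7 CPM in WT-Veh and about as low in each of the other groups, at 30.2, 35.5 and 33.0 CPM in WT-Topot, 25.0, 26.3 and 29.1 CPM in Top1 cKO-Veh and 24.7, 28.6 and 32.8 CPM in Top1 cKO-Topot cells. All 9 libraries outside WT-Veh were below the WT-Veh ones. In log2 terms the change was −0.99 ± 0.23 in WT-Topot (FDR = 0.0113, with the block 8.6e-06) and −1.29 ± 0.24 in Top1 cKO-Veh cells (FDR = 0.0194, with the block 1.81e-10). Both became calls without WT-Veh replicate 1 (FDR = 0.000929 and 0.00425).

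Among the membrane semaphorins, Sema5a and Sema7a fell and Sema6c rose with topotecan in WT cells. Sema5a (451.5 kb), which carries thrombospondin repeats, was at 48.0, 83.3 and 72.0 CPM in WT-Veh, 13.4, 22.0 and 22.3 CPM in WT-Topot, 95.8, 166 and 147 CPM in Top1 cKO-Veh and 66.5, 89.3 and 90.1 CPM in Top1 cKO-Topot cells. WT-Topot was lowest and Top1 cKO-Veh highest, above both WT-Veh and Top1 cKO-Topot without overlap. The log2 fold change was −1.81 ± 0.27 for WT-Topot vs WT-Veh (FDR = 0.000177) and −2.83 ± 0.25 for WT-Topot vs Top1 cKO-Veh (FDR = 1.32e-05). For Top1 cKO-Veh vs WT-Veh it was 1.02 ± 0.25 (FDR = 0.0775, with the block 3.6e-10, and 0.00601 without Top1 cKO-Veh replicate 1). The summed astrocyte markers had means of 1428 CPM in WT-Topot, 2433 in Top1 cKO-Topot, 3543 in WT-Veh and 4212 CPM in Top1 cKO-Veh cells. Means of Sema5a were 19.2, 82.0, 67.8 and 137 CPM in the same order. The libraries of WT-Veh and Top1 cKO-Topot overlapped in both measures, so the order of these groups cannot be read from the means. In Top1 cKO-Veh vs WT-Veh cells 0 of the 8 astrocyte markers were called without the block, and 1 was higher with it. Summed levels of 9 oligodendrocyte lineage markers were 98.48 to 155.2 CPM in WT-Veh and 141.3 to 194.6 CPM in Top1 cKO-Veh cells. Of these 9, 0 were called in that comparison without the block, and with it 1 was higher and 0 lower. The part of these markers in the Sema5a result was not tested.

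Sema7a, which binds plexin C1 and integrins, was the short gene called lower. It was at 150, 144 and 135 CPM in WT-Veh, 67.0, 35.2 and 50.5 CPM in WT-Topot, 113, 71.7 and 108 CPM in Top1 cKO-Veh and 110, 53.5 and 118 CPM in Top1 cKO-Topot cells. WT-Veh lay above every other library. Against WT-Veh the log2 fold change was −1.48 ± 0.22 in WT-Topot (FDR = 0.000212) and −0.56 ± 0.20 in Top1 cKO-Veh cells (FDR = 0.343, with the block 0.000591). Sema6c (13.57 kb) was at 20.5, 18.0 and 19.6 CPM in WT-Veh, 47.3, 34.3 and 42.0 CPM in WT-Topot, 17.6, 15.1 and 15.0 CPM in Top1 cKO-Veh and 20.7, 15.9 and 19.2 CPM in Top1 cKO-Topot cells. WT-Topot was above all other libraries. It rose by 1.09 ± 0.24 against WT-Veh (FDR = 0.00927) and by 1.37 ± 0.24 against Top1 cKO-Veh (FDR = 0.00279). The first call was lost without any WT-Topot library or without WT-Veh replicate 1 or 2 (FDR 0.0103 to 0.048) and with DESeq2's size factors (0.0107) or filterByExpr (0.0132), and the second without Top1 cKO-Veh replicate 2 (0.0174) or WT-Topot replicate 1 (0.0131). Sema4g (14.3 kb) was at 81.3, 43.8 and 55.3 CPM in WT-Veh, 103, 69.8 and 68.1 CPM in WT-Topot and 40.3, 37.6 and 26.6 CPM in Top1 cKO-Veh cells. WT-Topot overlapped WT-Veh and was not called against it, and Top1 cKO-Veh lay below both. The difference of 1.19 ± 0.23 between WT-Topot and Top1 cKO-Veh was called (FDR = 0.0057). It was lost without Top1 cKO-Veh replicate 2 (0.0157) or WT-Topot replicate 1 (0.0312) and with filterByExpr (0.0157). Sema6b (17.26 kb), which had the highest CPM of the membrane semaphorins when averaged over all 12 libraries, was at 83.5 to 147 CPM and was not called in any comparison.

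The plexins, the semaphorin receptors, included Plxna2 and Plxna4 among the genes that fell. Plxna4 (443.6 kb) was at 232, 517 and 194 CPM in WT-Veh, 43.9, 92.7 and 54.0 CPM in WT-Topot, 208, 228 and 145 CPM in Top1 cKO-Veh and 206, 189 and 144 CPM in Top1 cKO-Topot cells. WT-Topot lay below all other libraries, and the remaining groups overlapped. In log2 terms the change was −2.30 ± 0.32 for WT-Topot vs WT-Veh (FDR = 9.49e-05) and −1.61 ± 0.25 for WT-Topot vs Top1 cKO-Veh (FDR = 0.000958). For Top1 cKO-Veh vs WT-Veh it was −0.70 ± 0.30 (FDR = 0.483, with the block 2.2e-05). Reads of the antisense Plxna4os1, at a mean of 0.933 CPM, cannot be told apart from those of Plxna4 where strand was not used. Plxna2 (197 kb) was at 325, 314 and 357 CPM in WT-Veh, 123, 202 and 128 CPM in WT-Topot and 324, 350 and 282 CPM in Top1 cKO-Veh cells, with WT-Topot below both vehicle groups. The log2 fold change was −1.13 ± 0.20 against WT-Veh (FDR = 0.00111) and −1.08 ± 0.19 against Top1 cKO-Veh (FDR = 0.00334). The second call was lost without Top1 cKO-Veh replicate 2 (FDR = 0.015), WT-Topot replicate 1 (0.0171) or WT-Topot replicate 3 (0.0202) and with filterByExpr (0.0109).

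Plxna1 and Plxnc1 were not among the genes that fell. Plxna1 (46.3 kb), which with Plxna2 had the highest CPM of the plexins when averaged over all 12 libraries, was at 295, 300 and 198 CPM in WT-Veh and 277, 278 and 171 CPM in WT-Topot cells and was not called. Plxnc1 (153.6 kb), the receptor of Sema7a, was at 65.8, 89.0 and 66.2 CPM in WT-Veh, 85.8, 204 and 113 CPM in WT-Topot, 86.4, 173 and 106 CPM in Top1 cKO-Veh and 55.0, 124 and 55.1 CPM in Top1 cKO-Topot cells. Replicate 2 was highest in each group, and groups overlapped. With the block Plxnc1 was higher in WT-Topot (0.80 ± 0.15, FDR = 1.14e-05) and Top1 cKO-Veh (0.68 ± 0.14, FDR = 9.36e-05) than in WT-Veh cells, and, in Top1 cKO cells, lower with topotecan than with vehicle (−0.66 ± 0.13, FDR = 4.21e-05). Without the block none of the 3 was called, except the first without WT-Topot replicate 1 (FDR = 0.00235). Plxna3 (15.62 kb) was at 24.0, 20.2 and 33.4 CPM in WT-Veh and 50.6, 44.9 and 49.7 CPM in WT-Topot cells, without overlap (0.92 ± 0.24, FDR = 0.027, with the block 0.000113, without WT-Veh replicate 3 0.00215).

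The neuropilins, coreceptors of class 3 semaphorins, were lower after topotecan only with the block. Nrp1 was at 76.1, 80.2 and 71.4 CPM in WT-Veh and 49.6, 63.8 and 35.1 CPM in WT-Topot cells, and Nrp2 at 89.5, 121 and 97.9 CPM and 58.6, 78.4 and 78.8 CPM. The groups of neither gene overlapped. The log2 fold changes were −0.61 ± 0.22 for Nrp1 (FDR = 0.164, with the block 0.00341) and −0.51 ± 0.20 for Nrp2 (FDR = 0.232, with the block 0.00973).

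Deletion of Top1 without drug was compared with WT-Veh to see the effect of losing the enzyme, using the same WT-Veh libraries as the topotecan comparison. No guidance gene was called lower or higher by edgeR without the block, where 0.126% of all genes were lower and 0.0460% higher. At an unadjusted p under 0.05, 13 guidance genes were lower and 5 higher (4.82% and 3.90% of all genes), and DESeq2's Wald test called 4 lower, Robo2, Epha5, Epha10 and Sema3a, and 0 higher. With the replicate block 12 were lower and 4 higher, against 2.95% and 2.60% of all genes. Of the 12, 9 were over 100 kb, which is 29% of the 31 long guidance genes. Of all long genes at 1 CPM or more, 11.9% were called lower in that fit. The smallest FDRs with the block among those lower were of Robo2, Epha5, Epha10, Sema3a, Dcc and Plxna4. Those higher were Sema5a, Unc5a, Plxnc1 and Sema5b, the last named after its values were seen. Sema5b (123.6 kb) was at 4.39, 5.70 and 5.18 CPM in WT-Veh and 11.3, 10.8 and 19.0 CPM in Top1 cKO-Veh cells, without overlap (log2 fold change 1.36 ± 0.33 with the block, FDR = 0.000994, against 0.131 without it). The median log2 fold change was −0.08 over the 68 guidance genes with a count, −0.15 over the 31 long ones and −0.05 over all long genes with a count. Pearson r between log2 fold change and log10 span over the 68 genes was −0.178 and Spearman rho −0.224, described as above.

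Topotecan in Top1 cKO cells was compared with vehicle in the same cells to see what the drug does without most of its target. Again edgeR without the block called no guidance gene lower or higher, against 0.00837% and 0.00% of all genes. At an unadjusted p under 0.05, 11 were lower and 1 higher (2.62% and 1.69% of all genes), and DESeq2 called 2 lower, Epha5 and Robo2, and 0 higher. With the block 8 were lower and 0 higher, against 1.74% and 0.858% of all genes. Of the 8, 7 were over 100 kb, which is 22.6% of the 31 long guidance genes. Among all long genes at 1 CPM or more, 10.8% were called lower with the block. The 8 were Epha5, Robo2, Sema5a, Efnb3, Plxnc1, Dcc, Epha6 and Robo1. Without the block the log2 fold change was −0.96 ± 0.17 for Epha5 (FDR = 0.042, with the block 6.91e-14) and −1.33 ± 0.25 for Robo2 (FDR = 0.0578, with the block 1.08e-12), and both were called without Top1 cKO-Veh replicate 3 (FDR = 0.000697 and 1.74e-05). For Dcc it was −0.90 ± 0.29, for Epha6 −1.26 ± 0.39, for Robo1 −0.89 ± 0.29 and for Sema5a −0.73 ± 0.21 (FDR with the block 0.000226, 0.00025, 0.000678 and 1.82e-06). Of the 8 astrocyte markers, 0 were called in this comparison without the block and 5 were lower with it. Aldh1l1, S100b and Aldoc were not called in either fit. The part of these markers in the results was not tested.

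Topotecan and deletion were compared directly, WT-Topot against Top1 cKO-Veh, groups that also enter the comparisons above. Top1 was not wholly absent in Top1 cKO-Veh cells, where it was at 27.06 to 43.97 CPM. The groups also differ in CRE and in timing, with virus given at DIV 3 and topotecan from DIV 15. Here 7 guidance genes were lower in WT-Topot and 2 higher, against 1.23% and 0.293% of all genes. All 7 were over 100 kb: Dcc, Sema5a, Ephb1, Slit2, Plxna4, Unc5d and Plxna2. They were 22.6% of the 31 long guidance genes, and 11.2% of all long genes at 1 CPM or more were called lower here. The 2 higher were Sema6c and Sema4g. For Ephb1 the log2 fold change was −1.92 ± 0.27 (FDR = 0.000502). The number called lower rested on single libraries, being 15 without replicate 3 and 11 without replicate 1 of Top1 cKO-Veh, and 5 when Top1 cKO-Veh replicate 2, WT-Topot replicate 1 or WT-Topot replicate 3 was left out. Slit3, for which Top1 cKO-Veh replicate 3 was low, became a call without that library (FDR = 0.000102), as did Robo2 (6.85e-06) and Epha6 (1.92e-05). With the block 19 were lower and 6 higher, against 4.8% and 2.93% of all genes. Of the 19, 18 were over 100 kb, which is 58.1% of the 31 long guidance genes. Among all long genes at 1 CPM or more, 32.9% were called lower with the block. Genes that edgeR called with the block only included Efnb3 (higher, FDR = 1.05e-07), Epha5 (1.6e-07), Sema7a (3.38e-06), Robo2 (1.18e-05), Unc5c (1.2e-05), Epha6 (2.86e-05), Nrp1 (8.95e-05) and Sema3e (0.000223), the last 7 lower in WT-Topot.

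Whether the topotecan effect differed between WT and Top1 cKO cells was tested as an interaction over all 12 libraries. A single guidance gene, Ephb1, was called, against 0.398% of all genes with a positive interaction and 0.0377% with a negative one. Ephb1 is 1 of the 31 long guidance genes (3.23%), and 3.31% of all long genes at 1 CPM or more had a called positive interaction. The fall of Ephb1 with topotecan was smaller in Top1 cKO cells by 2.003 ± 0.36 on the log2 scale (FDR = 0.00588), and the call was lost in 7 of the 12 fits that left out 1 library (FDR 0.0114 to 0.0168), those without Top1 cKO-Topot replicate 1 or 3, Top1 cKO-Veh replicate 2, any WT-Topot replicate or WT-Veh replicate 1. With the block 14 guidance genes had a positive interaction and 2 a negative one, against 2.44% and 1.53% of all genes, and DESeq2 gave 8 and 1. Of the 14, 13 were over 100 kb, which is 41.9% of the 31 long guidance genes. Among all long genes at 1 CPM or more, 17.9% had a positive interaction with the block. Slit3 and Dcc had interactions of 2.94 ± 0.58 and 2.93 ± 0.58, just outside the threshold (FDR = 0.0108 for both, with the block 7.35e-06 and 5.41e-09). Both sizes rest on few reads in WT-Topot cells. Dcc passed in 5 fits without 1 library (lowest FDR 0.000583, without WT-Topot replicate 2) and Slit3 without Top1 cKO-Veh replicate 2 (0.00509) or replicate 3 (0.00819). Plxna4 (2.19 ± 0.43, FDR = 0.0114, with the block 6.06e-10) and Unc5d (1.62 ± 0.34, FDR = 0.0164, with the block 7.01e-06) were close to it as well. Plxna4 passed in 5 fits without 1 library (lowest FDR 0.00145, without WT-Veh replicate 3) and Unc5d without WT-Topot replicate 2 (0.00133) or WT-Veh replicate 1 (0.00972). The 2 negative interactions were of Efnb3 (−1.41 ± 0.29, FDR = 0.016, with the block 6.66e-08) and Plxnc1 (−1.51 ± 0.46, FDR = 0.149, with the block 8.8e-07). The remaining positive interactions under the block were of Sema7a (1.44 ± 0.37), Plxna2 (0.99 ± 0.25), Slit2, Robo2, Epha4, Epha5, Sema3a, Sema3e and Sema5a. Robo1 had an interaction of 0.53 ± 0.39 and Epha6 of 1.29 ± 0.56, neither called in either fit.

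**Figure D4:**
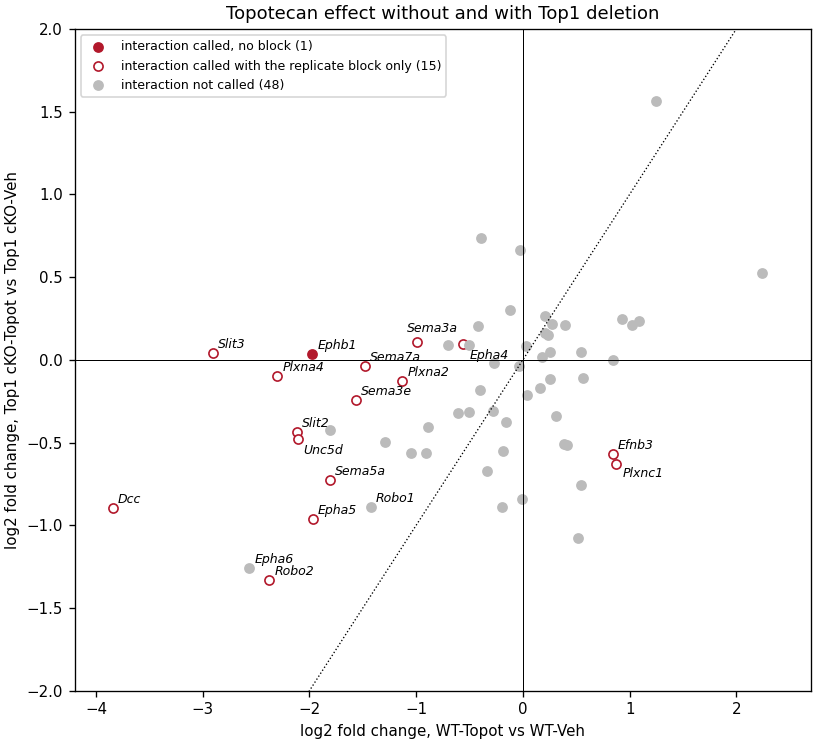
Log2 fold change with topotecan in Top1 cKO cells (vertical axis) against that in WT cells (horizontal axis) for the 64 guidance genes averaging 1 CPM or more. The axes share no library, and the dotted line marks equal effects. The filled point is Ephb1, the single gene with a called interaction, and the 15 open points were called with the replicate block only. Slit3, Plxna4 and Ephb1 lie near 0 on the vertical axis, whereas Robo2 and Epha6 are at −1.33 and −1.26.

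Further genes of the guidance pathways, 80 in the table, were described alongside the ligands and receptors. In WT-Topot vs WT-Veh cells 8 were lower and 0 higher (with the block 21 and 5), against 2.04% and 0.682% of all genes (with the block 5.0% and 3.24%), with a median log2 fold change of −0.28. Dscam, a further netrin receptor, fell by 3.66 on the log2 scale (SE 0.32, FDR = 5.16e-07), and Kalrn, an exchange factor downstream of EphB receptors, by 1.88 (SE 0.19). Nrcam, an adhesion molecule that joins semaphorin receptors, fell by 1.85 (SE 0.19) and Mical2, an oxidoreductase acting on actin, by 1.79 (SE 0.25). By system, 4 of 23 semaphorin and plexin effectors, 2 of 13 Eph and ephrin effectors, 1 of 13 Slit and Robo effectors, 1 of 9 netrin and RGM partners, 0 of 8 netrin effectors and 0 of 14 shared cytoskeletal regulators were lower. With the block these numbers were 5, 3, 5, 2, 3 and 3 in the same order, and 3 semaphorin and plexin effectors, 1 netrin effector and 1 shared regulator were higher. No gene of the list was called in Top1 cKO-Veh vs WT-Veh (with the block 7 lower and 3 higher) or Top1 cKO-Topot vs Top1 cKO-Veh (2 and 2), and 6 were lower in WT-Topot cells when these were set against Top1 cKO-Veh, against 1.23% of all genes (with the block 20 lower and 7 higher). The 4 with a called interaction, against 0.398% of all genes, were Dscam (2.91 ± 0.43), Kalrn (1.52 ± 0.23), Nrcam (1.36 ± 0.25) and Mical2 (1.89 ± 0.32). With the block 17 interactions were positive and 3 negative, against 2.44% and 1.53% of all genes. Among all genes over 100 kb at 1 CPM or more, positive interactions were called in 3.31% without and 17.9% with the block. The interaction of Nrcam was lost in 7 fits that left out 1 library (FDR 0.0104 to 0.0218) and that of Mical2 without WT-Topot replicate 1 (0.012) or WT-Topot replicate 3 (0.0127).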

How the data were processed

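RNA-seq was available for 12 cultures, 3 per group, with groups and replicate numbers taken from the sample titles. Per the labels and the study's methods, the authors ran TagDust and then TopHat against mm9, and deposited raw counts over RefSeq exons per gene symbol, without normalization. The counting program, its use of strand and the RefSeq release are not given in the sources used here, so reads of overlapping, antisense or near-identical genes may be shared. Of 23893 genes, 5182 had no count. The members and gene lists were chosen with earlier results of these data known.

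From the deposited counts, edgeR 4.0.16 (R 4.3.3, limma 3.58.1) was fitted per comparison on its 6 libraries, and on all 12 for the interaction, with TMM scaling, no filter, Benjamini-Hochberg adjustment over all genes and an FDR of 0.01. The SE is the log2 fold change divided by the square root of F. Alternatives were the replicate block, DESeq2 1.42.0, RLE scaling, filterByExpr and leaving out each library. The procedure was tested on simulated counts. Same-numbered libraries of different groups had correlations of their deviations from group means of 0.261 to 0.485 (18 pairs), so numbers were taken to pair the cultures. Differently numbered ones had correlations of −0.384 to −0.0494 (36 pairs). These are no separate evidence, since deviations from a group mean cancel within the group. Neither labels nor methods say what a number stands for. Within groups, libraries differed by more than sampling noise (dispersion index 6.05 to 10.1).

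Named genes were, in each comparison, the called members (up to 15 per direction) and up to 8 members whose call the block changed, the 2 members of each subfamily with the highest mean CPM, all netrin and Slit system members averaging 1 CPM or more, and up to 4 other pathway genes per direction. Rgmc of that list is not in the table. Spans and exon lengths came from GENCODE vM1, which all 72 members matched, and promoters from RefSeq.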

Additional observations from a re-analysis of the deposited data

Results flagged for a closer look

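The effect of topotecan on Ephb1 differed between WT and Top1 cKO cells by 2.003 on the log2 scale in the test of the interaction (FDR = 0.00588), being −1.97 ± 0.31 in WT and 0.03 ± 0.23 in Top1 cKO cells. All 3 WT-Topot libraries (6.30 to 8.56 CPM) lay below the 9 others (21.5 to 35.1 CPM). Ephb1 kept its call with the replicate block (FDR = 7.28e-06) and with DESeq2 (1.98e-05), and lost it in 7 of the 12 fits that left out 1 library (FDR 0.0114 to 0.0168).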

How the results depend on the processing

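No called value changed its sign, over 286 values from all alternatives. Of the 28 called pairs of a gene and a comparison, 28 kept their call with DESeq2, 28 with the replicate block, 26 with RLE size factors and 21 with filterByExpr, with 20 of 28 kept without WT-Topot replicate 1 and 5 of 10 without Top1 cKO-Veh replicate 2. The pairing by replicate number changed counts most. Guidance genes higher in WT-Topot vs WT-Veh were 2, and 6 with the replicate block, 0 with RLE size factors and 0 with filterByExpr, while 16 lower became 24 with the block. In Top1 cKO-Veh vs WT-Veh, 0 lower became 12 with the block and 4 with DESeq2, and 0 higher became 4 with the block. In Top1 cKO-Topot vs Top1 cKO-Veh, 0 lower became 8 with the block and 2 with DESeq2, and 0 higher remained 0 in all fits. In WT-Topot vs Top1 cKO-Veh, 7 lower became 19 with the block and 11 with DESeq2, and 2 higher became 6 with the block and 1 with filterByExpr. For the interaction, 0 negative became 2 with the block and 1 with DESeq2, and 1 positive became 14 with the block, 8 with DESeq2 and 4 with RLE size factors. Leaving out each library gave 14 to 17 lower and 0 to 3 higher in WT-Topot vs WT-Veh, 0 to 2 and 0 to 1 in Top1 cKO-Veh vs WT-Veh, 0 to 2 and 0 to 0 in Top1 cKO-Topot vs Top1 cKO-Veh, 5 to 15 and 0 to 3 in WT-Topot vs Top1 cKO-Veh, and 0 to 1 negative and 0 to 4 positive interactions. The cause was not tested. Fits without 1 library assume that the remaining 2 of its group vary like the others. Libraries held 1730164 to 4583777 counts, and 5 of the 69 genes averaged under 1 CPM.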
